A study of Mus musculus with 12 samples.

Results

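Whole-body irradiation with 10 Gy was given in a conventional and in an ultra-high dose rate mode, and the effect described here is the one averaged over both. It was taken from all 12 of the 12 RNA libraries of the series, 6 from irradiated (WBI) and 6 from non-irradiated (Ctrl) mice, with the mode as a covariate. The libraries fell into the groups LL_WBI, LL_Ctrl, HH_WBI and HH_Ctrl, with 3 libraries in each. LL stands for a low mean and a low instantaneous dose rate, delivered with a clinical linear accelerator, and HH for an ultra-high mean and instantaneous dose rate, delivered with a compact one. Irradiated mice received a single 10 Gy dose and intestinal tissue was taken 48 h later, and the Ctrl mice are labelled as untreated. All animals were female C57BL6/J mice bought at 7 to 8 weeks of age. The labels do not give the segment of the intestine, and they do not state that each library is 1 mouse, so the p-values below measure the spread between these libraries. Since each mode had its own machine and its own controls, mode, machine and handling cannot be told apart.

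The lining of the intestine is renewed by dividing cells at the base of the crypts, which makes it one of the tissues most sensitive to radiation. Breaks in DNA stabilise the transcription factor p53, which switches on genes that halt the cell cycle, repair DNA or start apoptosis, together with genes such as Mdm2 that shut p53 off again. Crypts that survive are rebuilt by cells that pass through a fetal-like regenerating state, in which ligands of the EGF receptor take part. Meanwhile lymphocytes and red cell precursors are lost from blood and tissue, and myeloid cells enter the damaged wall.

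Expression was given as FPKM, which scales reads to transcript length and to the reads of the library, and 12921 of 22063 genes reached the mean of 0.5 FPKM at which they were tested. That mean ran over all 12 libraries, so a gene low in 1 condition could be tested through the other. Counts of list members below cover the tested members only. A gene was called when its log2(FPKM + 0.1) differed by more than 1 in the limma fit and its p, adjusted after Benjamini and Hochberg, was under 0.05. By this rule 700 genes were higher in the WBI libraries (5.42% of those tested) and 186 were lower (1.44%). The shares over all genes in this paragraph are the background for the counts of list members below. With the adjusted p alone the response was nearly even, with 1505 genes higher (11.6%) and 1555 lower (12%), and a larger part of the falls than of the rises stayed under the fold threshold. The median log2 difference over all genes tested was close to 0 at 0.000702, with quartiles of -0.27 and 0.33. In 421 genes (3.26%) every WBI library lay above every Ctrl library, and in 503 (3.89%) every one lay below.

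The called genes moved the same way in both modes, though not always by the same amount. Genes were called on the mean over both modes, which opposite moves would seldom pass. The shared direction is thus largely set by the rule. Of the 700 genes called higher, 697 rose on average in each mode and 314 by more than 1 on the log2 scale in each, with a median of 1.0 in LL and 1.89 in HH. All 186 genes called lower fell in each mode, 112 by more than 1 in each, with medians of -1.25 and -1.37. The difference of the 2 responses passed an adjusted p of 0.05 in 952 genes (7.37%), among which were 114 of the genes called higher (111 of them with the larger rise in HH) and 2 of those called lower. This count rests on single libraries, with 69 genes without LL_Ctrl 3, 112 without LL_Ctrl 2, 249 to 438 without LL_Ctrl 1, HH_WBI 1 or any 1 HH_Ctrl library, 569 without HH_WBI 2 and 2030 without LL_WBI 3. A narrower set, called, with no overlap of the 6 and 6 libraries, past 1 in each mode and with no difference called between the modes, held 175 genes higher and 51 lower. The lack of a called difference does not show that the responses were equal. Ccl2, for example, was in this set with log2 2.65 in LL and 4.39 in HH. How the set changes when a library is left out was not tested.

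**Figure D1:**
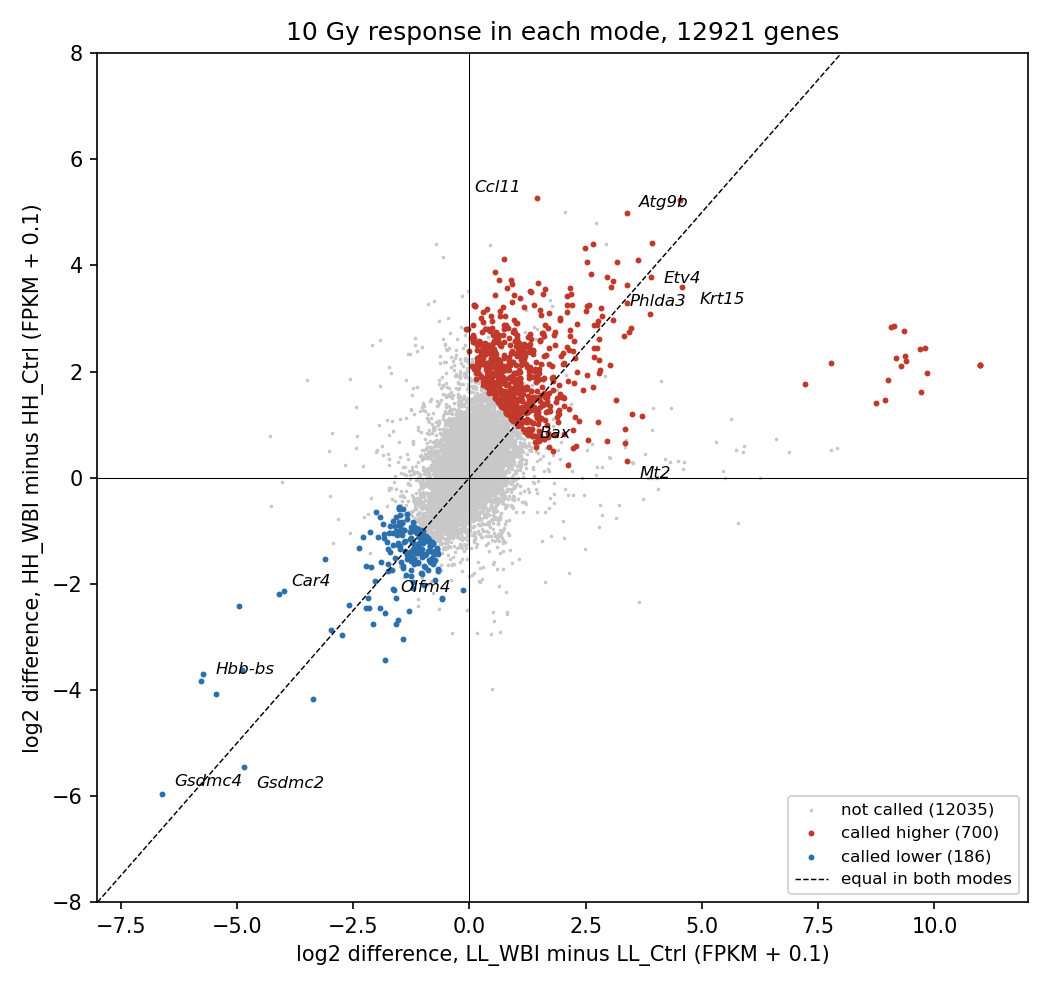
Log2 difference between WBI and Ctrl libraries in the LL mode (x axis) and in the HH mode (y axis), 1 point for each of 12921 genes, with the 700 genes called higher in red and the 186 called lower in blue. The called genes lie in the upper right and lower left corners, and the red points far to the right near a log2 difference of 10 in LL are pancreatic enzyme genes.

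Several libraries stand apart from the rest and bear on the counts. Pancreatic acinar enzyme genes took 7.31% of the FPKM of LL_WBI 1 and 25.5% of that of LL_WBI 2, against 0.516% to 0.964% elsewhere, and 16 of 30 tested members were called higher although in none did the 6 and 6 libraries separate. That count was 9 without LL_WBI 1 or LL_WBI 2 alone, and 1 to 3 without HH_WBI 1 or any 1 LL_Ctrl library. It was at most 22 when 1 library was left out. Without both LL_WBI 1 and LL_WBI 2, 24 members were tested, of which 12 were called higher and 2 lower, with a median of 1.69. The calls were thus not confined to the fits that held these 2 libraries. Genes of ileal enterocytes took their largest share in HH_WBI 3 (0.225%), and the 0.0839% in LL_WBI 3 lay within the 0.015% to 0.10% of the others. LL_WBI 1 was the irradiated library nearest to the controls in 58.8% of the 684 genes called higher outside the pancreatic lists and in 60.2% of the 186 called lower. Leaving out LL_WBI 1 and LL_WBI 2 gave 1193 genes higher and 280 lower, leaving out LL_WBI 3 and HH_WBI 3 gave 465 and 146, and leaving out HH_WBI 1 gave 463 higher. The relative depth, read from the steps between low values, was 90.9% to 107% of that of LL_Ctrl 1 in 11 libraries and 73.2% in LL_WBI 3. Genes of the intestinal epithelium were present in every library, at 0.624% to 1.5% of the FPKM. Where RNA of a tissue falls, fewer cells of a type and less RNA per cell cannot be told apart in these bulk samples.

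Most listed targets of p53 were higher, and the medians of the 2 lists were positive in both modes. Of 20 tested genes of arrest, repair and p53 feedback, 10 were called higher and none lower, against 5.42% of all genes, with a median log2 difference of 0.99, and in 12 of them all 6 WBI libraries lay above all 6 Ctrl libraries (3.26% of all genes). Of 15 tested p53 death genes, 6 were called higher and 1 lower, with a median of 0.65 and 8 with the WBI libraries above the controls. These counts were 9 to 11 and 4 to 6 when any 1 library was left out. By the adjusted p alone, 14 of the 20 and 8 of the 15 were higher, and 1 in each list was lower. In the wider KEGG pathway of p53 signaling, taken from the annotation in the deposited table, 13 of 68 genes were called higher and 2 lower (median 0.19). For KEGG apoptosis it was 10 of 127 higher and 1 lower (median 0.02), against 5.42% and 1.44% of all genes. Trp53 itself, whose product is regulated mainly at the protein level, was not called, with 25.8 to 29.3 FPKM in the Ctrl and 21.6 to 35.2 FPKM in the WBI libraries (log2 -0.049 ± 0.12 (SE), adjusted p = 0.781).

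Psrc1, which binds mitotic microtubules and is induced by p53, had 1.42 to 2.17 FPKM in the Ctrl libraries (median 1.47) and 8.93 to 16.6 FPKM in the WBI libraries (median 12.9). Its rise of 7.48-fold (log2 2.9 ± 0.16 (SE), adjusted p = 2.38e-06) carried the smallest adjusted p of the table, which it shared with Etv4 and Gsdmc2. Gtse1, which restrains p53 in the G2 phase, stood at 2.74 to 4.08 FPKM in Ctrl and 9.04 to 14.1 FPKM in WBI libraries, 3.15-fold higher (log2 1.65 ± 0.12 (SE), adjusted p = 8.63e-06). Ccng1, a cyclin that feeds back on p53, rose from between 5.65 and 22.4 to between 43 and 104 FPKM (log2 2.46 ± 0.23 (SE), adjusted p = 4.89e-05), and the groups did not overlap, with 5.65 to 7.5 FPKM in HH_Ctrl and 17.1 to 22.4 FPKM in LL_Ctrl libraries. Mdm2, the ubiquitin ligase that degrades p53, ranged over 6.13 to 15.6 FPKM in Ctrl and 16.9 to 25 FPKM in WBI libraries (log2 1.01 ± 0.20 (SE), adjusted p = 0.0053), with a larger rise in HH (log2 1.59) than in LL (0.43, adjusted p of the difference 0.0194). It sat at the threshold of 1, and leaving out HH_Ctrl 1, 2 or 3 or HH_WBI 1 or 2 gave log2 values of 0.97, 0.89, 0.97, 0.90 and 0.92. Cdkn1a, which encodes the cell cycle inhibitor p21, was at 101 to 207 FPKM in Ctrl and 157 to 267 FPKM in WBI libraries, so that the groups overlapped and the difference stayed under the threshold of 1 (log2 0.55 ± 0.13 (SE), adjusted p = 0.0124).

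Among the death genes, Phlda3, a p53 target that blocks Akt at the membrane, had the largest rise. It went from between 1.47 and 3.24 FPKM (median 2.3) in Ctrl to between 12.8 and 38 FPKM (median 24.7) in WBI libraries, which is 10.5-fold (log2 3.4 ± 0.23 (SE), adjusted p = 7.49e-06). Eda2r, a death receptor of the TNF family, went from between 0.058 and 0.324 to between 1.83 and 4.31 FPKM (log2 3.37 ± 0.25 (SE), adjusted p = 1.20e-05). Bax, which opens the outer mitochondrial membrane in apoptosis, showed little spread within the groups, with 22.1 to 27.8 FPKM in Ctrl and 50.6 to 67.5 FPKM in WBI libraries, a rise of 2.25-fold (log2 1.17 ± 0.097 (SE), adjusted p = 2.19e-05) that was alike in LL (log2 1.25) and HH (log2 1.1). In this list 12 of 15 members had a positive difference, and the 1 called lower was Casp6, an effector caspase. It fell from between 80.7 and 189.8 to between 16.7 and 115 FPKM (log2 -1.29 ± 0.33 (SE), adjusted p = 0.0158). Without HH_WBI 3, where it was lowest, the log2 difference of Casp6 was -0.98 and it was no longer called.

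The promoters of these genes are shown because most tested members of both p53 lists had a positive difference (17 of 20 and 12 of 15). The RefSeq promoter table (build GRCm38.p6, 250 bases before to 50 after the start of a gene) matched 29 members of the 2 lists. It was searched on both strands for the p53 half-site, the 10-base consensus bound by 1 pair of p53 subunits, which reads the same on either strand. At least 1 half-site was found in 13 of the 29 (44.8%), against 835 of 10088 tested genes with a promoter in the table (8.28%) and 2745 of all 32851 promoters (8.36%). Genes enter such lists in part because p53 binds near them, so this share describes the lists. It was found in 7 of 14 members called higher and in 6 of 14 tested members that were not, and, over the whole table of results, in 12% of 524 called higher and 10.1% of 139 called lower. Below are 2 called members of each list that hold 1 half-site, written 5′ to 3′ on the strand of the gene with the half-site in capitals. They lie at chr11:40755237-40755536 (minus strand), chr15:85859696-85859995 (plus strand), chr7:45466849-45467148 (minus strand) and chr7:78895677-78895976 (plus strand).
Ccng1: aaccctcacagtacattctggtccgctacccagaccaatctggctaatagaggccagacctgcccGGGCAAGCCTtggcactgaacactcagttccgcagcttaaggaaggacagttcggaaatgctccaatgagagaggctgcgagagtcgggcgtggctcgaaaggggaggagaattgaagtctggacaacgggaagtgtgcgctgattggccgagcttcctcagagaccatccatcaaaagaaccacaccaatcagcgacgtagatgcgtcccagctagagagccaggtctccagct
Gtse1: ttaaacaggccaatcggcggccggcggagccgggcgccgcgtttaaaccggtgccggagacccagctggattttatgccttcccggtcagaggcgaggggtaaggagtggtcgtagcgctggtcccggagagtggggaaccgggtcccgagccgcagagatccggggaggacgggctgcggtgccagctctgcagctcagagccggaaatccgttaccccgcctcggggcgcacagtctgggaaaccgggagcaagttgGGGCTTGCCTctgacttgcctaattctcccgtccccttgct
Bax: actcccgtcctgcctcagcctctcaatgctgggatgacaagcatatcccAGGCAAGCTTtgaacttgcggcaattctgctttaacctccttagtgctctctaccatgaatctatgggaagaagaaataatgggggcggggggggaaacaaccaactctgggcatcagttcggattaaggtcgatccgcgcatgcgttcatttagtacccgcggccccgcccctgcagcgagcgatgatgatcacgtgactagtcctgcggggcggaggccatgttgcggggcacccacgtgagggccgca
Aen: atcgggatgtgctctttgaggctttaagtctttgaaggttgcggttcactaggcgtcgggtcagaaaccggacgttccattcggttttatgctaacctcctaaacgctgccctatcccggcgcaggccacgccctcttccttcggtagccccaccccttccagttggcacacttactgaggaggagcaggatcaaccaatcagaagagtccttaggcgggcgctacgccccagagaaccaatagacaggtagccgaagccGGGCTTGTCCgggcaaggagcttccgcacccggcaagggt
In Ccng1 and Bax the half-site lies ahead of the start of the gene, and in Gtse1 and Aen it lies just after it. Aen, a nuclease that acts in p53-dependent apoptosis, was at 4.63 to 6.99 FPKM in Ctrl and 12.5 to 20.1 FPKM in WBI libraries (log2 1.57 ± 0.13 (SE), adjusted p = 2.44e-05).

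**Figure D2:**
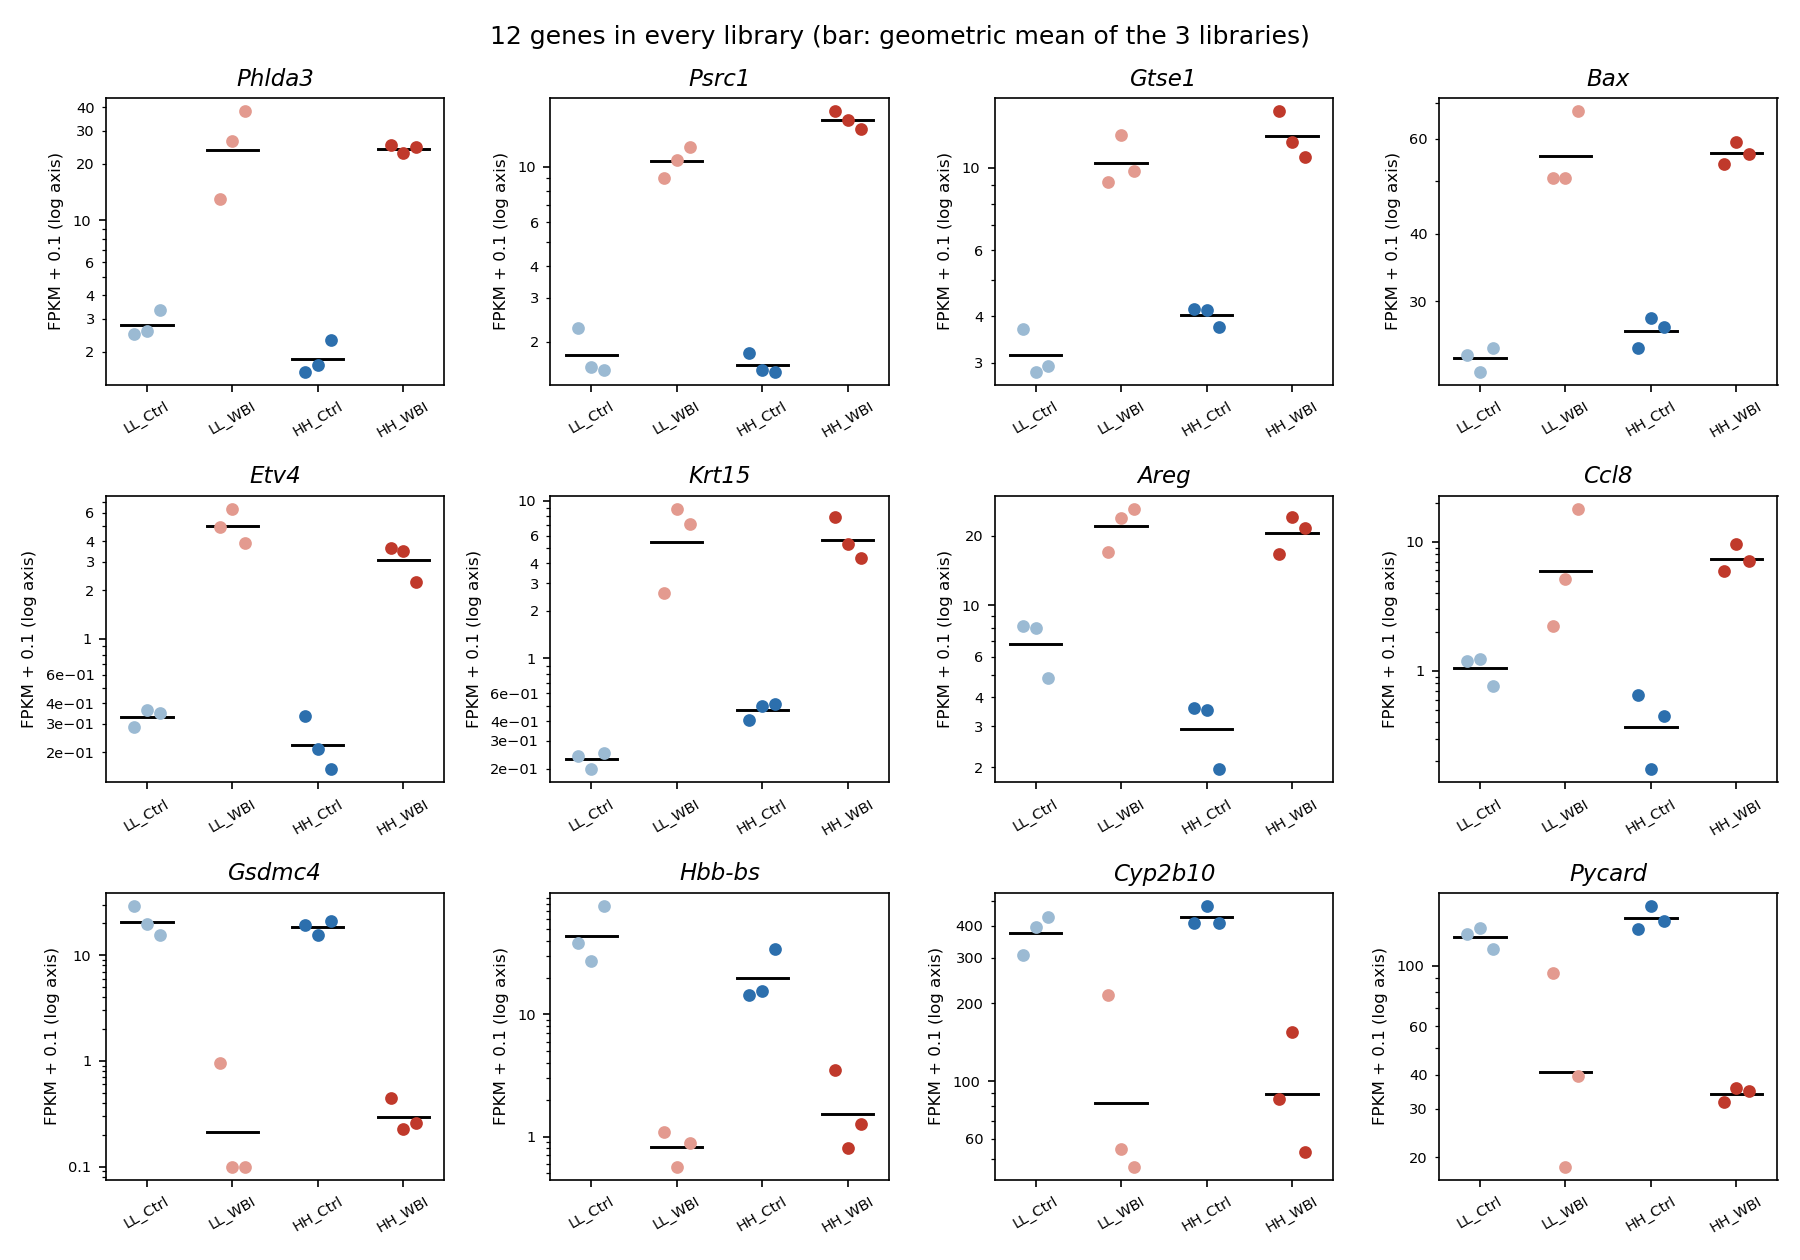
FPKM plus 0.1 on a log axis for 12 genes in each of the 12 libraries, by group, with a bar at the geometric mean of the 3 libraries. The WBI points lie above the Ctrl points in both modes for the 8 genes of the upper 2 rows and below them for the 4 genes of the bottom row, and LL_WBI 1 (leftmost point of LL_WBI) is the irradiated library closest to the controls for Gsdmc4, Cyp2b10 and Pycard.

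Stress genes outside the p53 lists rose selectively. Gdf15, a secreted stress hormone induced by p53 and by ATF4, went from between 0.31 and 0.739 FPKM (median 0.406) to between 2.44 and 4.95 FPKM (median 4.33), a 7.72-fold rise (log2 2.95 ± 0.20 (SE), adjusted p = 7.49e-06). Psat1, an enzyme of serine synthesis controlled by ATF4, rose from between 3.79 and 10 to between 10.4 and 13.4 FPKM (log2 1.17 ± 0.19 (SE), adjusted p = 0.00213), but these were the only 2 of 11 tested ATF4 genes called and the median was 0.055. Of 15 antioxidant genes of the factor NRF2, 3 were called higher with a list median of 0.10. Akr1b8, an aldose reductase, stood at 3.7 to 8.13 FPKM in Ctrl and 18.6 to 36.4 FPKM in WBI libraries (log2 2.18 ± 0.23 (SE), adjusted p = 0.000152). Hmox1, which breaks down haem, went from between 1.0 and 2.69 to between 5.21 and 11.4 FPKM (log2 2.01 ± 0.27 (SE), adjusted p = 0.000852), with log2 1.3 in LL and 2.72 in HH (adjusted p of the difference 0.0395). Ddit4l, an inhibitor of the growth regulator mTORC1, went from between 0.205 and 0.394 to between 1.63 and 7.93 FPKM, or 9.95-fold (log2 3.32 ± 0.31 (SE), adjusted p = 6.84e-05). Atg9b, a membrane protein of autophagy, was at 0.077 to 0.107 FPKM in every Ctrl library and at 3.27 to 7.56 FPKM in 5 WBI libraries, with 0.521 FPKM in LL_WBI 1 (log2 4.18 ± 0.44 (SE), adjusted p = 0.000152).

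The summed level of mitosis genes lay below every control in 5 of 6 irradiated libraries, but few of the genes passed the test. Of 22 tested mitosis genes none rose, all 22 had a negative difference and the median was -0.56, yet only Ccnb2, a cyclin of mitotic entry, was called. It had 16.5 to 22.3 FPKM in Ctrl and 5.54 to 20.6 FPKM in WBI libraries (log2 -1.08 ± 0.27 (SE), adjusted p = 0.0145), and without LL_WBI 2 or LL_WBI 3 its log2 difference was -0.93. The summed mitosis list made up 0.0412% to 0.0585% of the FPKM in Ctrl libraries and 0.0194% to 0.0387% in 5 WBI libraries, while LL_WBI 1 held 0.0654%, above every control. Without LL_WBI 1 there were 5 mitosis genes called lower, without HH_WBI 2 there were 2, and without LL_WBI 2 or LL_WBI 3 there were 0 (none of these fits called one higher). Mki67, the Ki-67 proliferation antigen, was at 4.37 to 9.91 FPKM in Ctrl and 1.56 to 6.91 FPKM in WBI libraries, short of the threshold of 1 (log2 -0.89 ± 0.26 (SE), adjusted p = 0.0258), and at -1.02 without LL_WBI 1 or without HH_WBI 2.

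Of 22 genes of DNA replication, 1 was called lower, with a median of -0.24. This was Tk1, the thymidine kinase of S phase, with 11.5 to 19.4 FPKM in Ctrl and 3.12 to 14.6 FPKM in WBI libraries (log2 -1.4 ± 0.29 (SE), adjusted p = 0.0067). As with mitosis, LL_WBI 1 stood apart. The summed replication list was 0.0462% to 0.0524% of the FPKM in Ctrl libraries, 0.0764% in LL_WBI 1 and 0.03% to 0.0446% in the other WBI libraries. By the adjusted p alone 1 of the 22 was lower, and 13 were without LL_WBI 1 (median -0.45). Of 17 DNA repair genes, 1 was called lower, H2ax, the histone that is phosphorylated beside DNA breaks. H2ax mRNA was at 23.7 to 44.4 FPKM in Ctrl and 8.77 to 26.4 FPKM in WBI libraries (log2 -1.1 ± 0.22 (SE), adjusted p = 0.0054), and its log2 difference was -0.99 without LL_WBI 2. The summed repair list was 0.0131% to 0.0152% of the FPKM in Ctrl libraries, 0.0155% in LL_WBI 1 and 0.0086% to 0.0127% in the other WBI libraries, while the median of its genes was 0.0039.

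Markers of crypt stem cells did not move together. Of 13 tested, 1 was called higher and 1 lower, with a median of 0.08. Lgr5, the receptor that marks cycling stem cells, had 0.981 to 2.14 FPKM in Ctrl and 0.686 to 1.78 FPKM in WBI libraries (log2 -0.32 ± 0.24 (SE), adjusted p = 0.349). Olfm4, a secreted glycoprotein of crypt base cells, was at 82.5 to 276 FPKM in Ctrl libraries and at 18.0 to 51.6 FPKM in 5 WBI libraries, with 219 FPKM in LL_WBI 1. Its fall was nearly equal in LL (log2 -1.75) and HH (log2 -1.75), and 3.37-fold over both (log2 -1.75 ± 0.34 (SE), adjusted p = 0.00481). Sox9, a transcription factor of crypt progenitors and Paneth cells, rose instead, from between 1.64 and 3.54 to between 4.14 and 9.47 FPKM with no overlap (log2 1.34 ± 0.21 (SE), adjusted p = 0.00184).

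Of 20 tested genes of the fetal-like, regenerating epithelium 12 were called higher (5.42% of all genes) and none lower. The median was 1.61, and 7 had every WBI library above every control (3.26% of all genes). Leaving out 1 library gave 11 or 12 calls, and leaving out LL_WBI 3 and HH_WBI 3 gave 12. The summed list overlapped between the groups, with 0.106% to 0.199% of the FPKM in Ctrl libraries (highest in HH_Ctrl 3) and 0.138% to 0.217% in WBI libraries. Krt15, a keratin of long-lived regenerative epithelial cells, went from between 0.099 and 0.417 FPKM (median 0.228) to between 2.49 and 8.82 FPKM (median 6.12), a 16.9-fold rise (log2 4.08 ± 0.31 (SE), adjusted p = 1.20e-05). Areg and Ereg encode amphiregulin and epiregulin, ligands of the EGF receptor. Areg stood at 1.86 to 8.05 FPKM in Ctrl and 16.7 to 26.2 FPKM in WBI libraries, 4.78-fold higher (log2 2.26 ± 0.25 (SE), adjusted p = 0.00022). Ereg stood at 0.382 to 1.31 and 3.03 to 13.9 FPKM, 7.31-fold higher (log2 2.87 ± 0.34 (SE), adjusted p = 0.000384). Further ligands of the list were not called, Hbegf (log2 -0.09 ± 0.23 (SE), adjusted p = 0.803) and Tgfa (log2 0.20 ± 0.12 (SE), adjusted p = 0.263). Etv4, an ETS factor downstream of growth factor receptors, had 0.186, 0.263, 0.25, 0.233, 0.11 and 0.057 FPKM in the LL_Ctrl 1 to 3 and HH_Ctrl 1 to 3 libraries and 4.79, 6.29, 3.8, 3.56, 3.39 and 2.15 FPKM in the LL_WBI 1 to 3 and HH_WBI 1 to 3 libraries. It rose 14.4-fold, by much the same in LL (log2 3.9) and HH (log2 3.78), with an SE of 0.23 and an adjusted p of 2.38e-06. Il1rn, the antagonist of the interleukin 1 receptor, rose from between 0.606 and 3.6 to between 7.76 and 45 FPKM (log2 3.29 ± 0.38 (SE), adjusted p = 0.000324). Mboat1, a lysophospholipid acyltransferase, rose from between 0.404 and 1.69 to between 5.9 and 10.6 FPKM (log2 3.48 ± 0.25 (SE), adjusted p = 8.63e-06).

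No gene was called among 23 of absorptive enterocytes (median -0.25, with 1 higher and 5 lower at an unadjusted limma p under 0.05) or among 11 of goblet cells (median 0.36, with 1 higher and 0 lower). Tuft cell genes likewise gave 0 calls of 8 (median -0.12, with 1 higher and 1 lower at an unadjusted p under 0.05). Of 10 Paneth cell genes, which encode antimicrobial peptides and enzymes of the crypt base, 3 were called higher with a median of 1.46, but none separated the groups. Mmp7, the protease that activates defensins, was at 21.6 to 118 FPKM in Ctrl and 88.6 to 479 FPKM in WBI libraries (log2 1.86 ± 0.49 (SE), adjusted p = 0.0185). Ang4, an angiogenin with antimicrobial action, was at 15.8 to 339 and 155 to 1434 FPKM (log2 2.43 ± 0.70 (SE), adjusted p = 0.0261). The Paneth list took 6.73% of the FPKM of LL_WBI 3, 4.78% of that of HH_WBI 3 and 3.56% of that of HH_WBI 1, against 0.386% to 2.39% in all others. Leaving out LL_WBI 3 and HH_WBI 3 gave 0 calls, leaving out LL_WBI 1 and LL_WBI 2 gave 9, and leaving out LL_WBI 3, HH_Ctrl 1, HH_Ctrl 2, HH_WBI 1 or HH_WBI 3 alone gave 1. Of 15 enteroendocrine genes 1 was called, Gcg (proglucagon), with 5.05 to 28.3 FPKM in Ctrl and 16 to 53 FPKM in WBI libraries (log2 1.32 ± 0.42 (SE), adjusted p = 0.0412). Gcg rose by log2 2.56 in HH and 0.07 in LL (adjusted p of the difference 0.0194), and it was called in 5 of the 12 fits that left out 1 library.

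The deepest falls of all named genes were those of gasdermins. Gasdermins are proteins whose cleaved form makes pores in the cell membrane during pyroptosis, and the mouse Gsdmc genes are copies of one another, so reads may have been split between them. Gsdmc4 had 15.5 to 29.1 FPKM in the 6 Ctrl libraries, while the LL_WBI 1 to 3 and HH_WBI 1 to 3 libraries had 0.852, 0, 0, 0.348, 0.127 and 0.156 FPKM, with 2 listed at 0 (log2 -6.29 ± 0.48 (SE), adjusted p = 1.20e-05). Gsdmc2 was at 3.5 to 10 FPKM in Ctrl and 0.021 to 0.251 FPKM in WBI libraries, 35.7-fold lower (log2 -5.16 ± 0.31 (SE), adjusted p = 2.38e-06). Gsdmc3 fell as well, from 0.637 to 2.4 FPKM to values listed as 0 to 0.098 FPKM (log2 -3.77 ± 0.33 (SE), adjusted p = 3.75e-05). Of 14 genes of gasdermins and pyroptosis 5 were called lower and none higher, and those 5 were also the ones with every WBI library below every control (3.89% of all genes). The other 2 were parts of inflammasomes, the complexes that activate caspase 1. Pycard, the ASC adaptor, fell from between 114 and 165 to between 18.4 and 94 FPKM, 3.67-fold (log2 -1.88 ± 0.29 (SE), adjusted p = 0.00177), with its highest WBI value of 94 FPKM in LL_WBI 1. Nlrp6, an epithelial sensor, fell from between 65.3 and 96.4 to between 27 and 60.6 FPKM (log2 -1.03 ± 0.18 (SE), adjusted p = 0.0032). The list median was only -0.10, and Gsdmd, the gasdermin cleaved by caspase 1, was not called (log2 0.094 ± 0.15 (SE), adjusted p = 0.664), nor was Casp1 (log2 -0.51 ± 0.30 (SE), adjusted p = 0.22).

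Ccl2, Ccl7, Ccl8 and Ccl11, chemokines that attract monocytes or eosinophils, rose strongly from low control values in at least 1 mode. Of 27 listed cytokines and chemokines 20 reached the level for testing. Of these 20, 12 were called higher (5.42% of all genes) and 1 lower, with a median of 1.60. In 8 of the 20 every WBI library lay above every control (3.26% of all genes). Ccl2, Ccl7 and Il6 reached that level through the irradiated libraries (means of 0.29, 0.19 and 0.135 FPKM in Ctrl and 5.42, 5.02 and 0.892 FPKM in WBI). The counts and the median of this list therefore lean toward rises. The calls numbered 10 to 12 without any 1 library, 8 with a pseudocount of 1, and 9 of 18 tested without LL_WBI 3 and HH_WBI 3. The summed list did not separate the groups, with 0.105% to 0.141% of the FPKM in Ctrl and 0.0669% to 0.175% in WBI libraries. Ccl2, Ccl7 and Ccl8 encode ligands of the monocyte receptor CCR2 or of related receptors. Ccl2 went from between 0.046 and 0.594 FPKM (median 0.235) to between 1.12 and 16.6 FPKM (median 3.44), 11.5-fold (log2 3.52 ± 0.60 (SE), adjusted p = 0.00256). Ccl7 went from between 0.055 and 0.48 to between 0.777 and 14.3 FPKM (log2 3.62 ± 0.62 (SE), adjusted p = 0.00271), and Ccl8 from between 0.074 and 1.15 to between 2.11 and 18 FPKM (log2 3.41 ± 0.52 (SE), adjusted p = 0.00154). In all 3 genes LL_WBI 3 was the highest library and LL_WBI 1 the lowest irradiated one, and no control reached it. Ccl11, or eotaxin, had 12.7, 11 and 12.4 FPKM in LL_Ctrl but 0.405 to 0.696 FPKM in HH_Ctrl, and 17.3 to 70.7 FPKM in WBI libraries (log2 3.36 ± 0.60 (SE), adjusted p = 0.00332). Its rise was therefore far larger in HH (log2 5.27) than in LL (log2 1.46, adjusted p of the difference 0.0106), while the irradiated values of the 2 modes overlapped. Tnf, the tumour necrosis factor, rose from between 0.376 and 1.12 to between 1.37 and 3.51 FPKM (log2 1.68 ± 0.28 (SE), adjusted p = 0.00226). Il6 was at 0 to 0.309 FPKM in Ctrl libraries and at 0.967 to 1.16 FPKM in 5 WBI libraries, with 0.205 FPKM in HH_WBI 3 (log2 2.18 ± 0.45 (SE), adjusted p = 0.00606). Il10 did not reach the level for testing. The member that fell was Ccl28, an epithelial chemokine that attracts plasma cells, from between 3.73 and 9.54 to between 1.21 and 4.59 FPKM (log2 -1.48 ± 0.26 (SE), adjusted p = 0.0032).

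Myeloid markers rose with the chemokines, macrophage markers mainly against the low HH_Ctrl libraries. Of 16 macrophage genes 11 were called higher (5.42% of all genes) and none lower, with a median of 1.35. In 11 of the 16, however, the responses differed between modes (7.37% of all genes), with a list median of 0.27 in LL and 2.25 in HH. The summed list was 0.0532% to 0.0941% of the FPKM in LL_WBI against 0.0568% to 0.0662% in LL_Ctrl, and 0.0781% to 0.0835% in HH_WBI against 0.017% to 0.0366% in HH_Ctrl. The groups thus overlapped in LL and lay apart in HH. Mrc1, the mannose receptor of tissue macrophages, was at 1.77 to 4.25 FPKM in WBI, 1.63 to 2.23 FPKM in LL_Ctrl and 0.21 to 0.312 FPKM in HH_Ctrl libraries (log2 1.75 ± 0.42 (SE), adjusted p = 0.0119), with log2 0.47 in LL and 3.04 in HH (adjusted p of the difference 0.011). Cd163, a haemoglobin scavenger receptor, was at 0.154 to 0.332 and 0.319 to 1.32 FPKM (log2 1.39 ± 0.32 (SE), adjusted p = 0.0101). The macrophage count fell to 5 or 6 when any HH_Ctrl or HH_WBI library was left out, and to 1 without LL_WBI 3 and HH_WBI 3. Of 13 neutrophil genes listed, 6 reached the level for testing, and 4 of these were called higher (median 1.52). Without LL_WBI 3 and HH_WBI 3, 4 were tested and 2 called. S100a9 reached that level through the irradiated libraries (mean of 0.0657 FPKM in Ctrl and 2.58 FPKM in WBI). A gene nearly absent from the controls is tested only if it rises, so these counts lean toward rises. S100a9, a calcium-binding protein abundant in neutrophils, was at 0 to 0.083 FPKM in Ctrl and 0.405 to 11.6 FPKM in WBI libraries, with the highest value in LL_WBI 3 (log2 3.0 ± 0.61 (SE), adjusted p = 0.00607). Ltf, lactoferrin, was at 0.214 to 1.49 and 1.02 to 12.8 FPKM (log2 2.38 ± 0.51 (SE), adjusted p = 0.00718). Epithelial antimicrobial genes were mixed, with 2 of 11 called higher and 1 lower. Saa3, an acute phase protein, had 0.363 to 1.6 FPKM in Ctrl and 1.05 to 30.3 FPKM in WBI libraries (log2 2.86 ± 0.62 (SE), adjusted p = 0.0077), Pla2g5, a secreted phospholipase, 0.586 to 5.07 and 2.65 to 8.74 FPKM (log2 1.71 ± 0.29 (SE), adjusted p = 0.00263), and Reg3a, a lectin that kills bacteria, 69.7 to 305 and 34 to 142 FPKM (log2 -1.33 ± 0.31 (SE), adjusted p = 0.0117).

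Of 25 tested interferon-inducible genes 2 were called higher and 1 lower, with a median of 0.25. Of all genes 5.42% were called higher. The count of higher genes was 7 without LL_WBI 2, 5 without LL_WBI 1, 0 without HH_WBI 1, and 1 or 2 without any 1 other library. Without both LL_WBI 1 and LL_WBI 2 it was 10. Rsad2 (viperin) was at 1.46 to 3.84 FPKM in Ctrl and 3.1 to 6.61 FPKM in WBI libraries (log2 1.12 ± 0.23 (SE), adjusted p = 0.00663), and its log2 difference was 0.97 without HH_WBI 1. Ifit2 was called (log2 1.22 ± 0.41 (SE), adjusted p = 0.0482) but kept its call in only 3 of the 12 fits that left out 1 library. Gvin1, a large interferon-inducible GTPase, fell from between 8.85 and 27.5 to between 0.648 and 4.7 FPKM with no overlap, 7.21-fold (log2 -2.85 ± 0.35 (SE), adjusted p = 0.000514).

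Matrix genes of fibroblasts rose as a group. All 18 tested collagens and matrix genes had a positive difference and 15 were called higher (5.42% of all genes). The median was 1.68, and 9 had every WBI library above every control (3.26% of all genes). Col1a1, the main fibrillar collagen chain, was at 2.98 to 13.4 FPKM in Ctrl and 13.5 to 38.2 FPKM in WBI libraries, 3.6-fold higher (log2 1.85 ± 0.28 (SE), adjusted p = 0.00154). Mmp3, a matrix-degrading protease, was at 0.104 to 0.428 and 0.714 to 4.46 FPKM, 6.79-fold higher (log2 2.76 ± 0.44 (SE), adjusted p = 0.00191). The summed list held 0.0367% to 0.0494% of the FPKM in LL_Ctrl, 0.0139% to 0.0164% in HH_Ctrl, 0.0517% to 0.121% in LL_WBI and 0.0627% to 0.114% in HH_WBI. Irradiated libraries of both modes were thus above the controls, and the modes differed mainly in their controls (list medians 0.88 in LL and 2.28 in HH). The 15 calls became 14 to 18 when 1 library was left out and stayed 15 without LL_WBI 3 and HH_WBI 3. Of 13 endothelial genes 6 were called higher (median 0.97), with medians of 0.12 in LL and 1.83 in HH and none with the groups apart. Eng, a TGF-beta coreceptor of vessels, was at 1.77 to 7.94 and 7.28 to 16.6 FPKM (log2 1.3 ± 0.29 (SE), adjusted p = 0.00944). Lyve1, a hyaluronan receptor of lymphatic vessels, was at 0.703 to 4.09 and 3.49 to 12.3 FPKM (log2 1.58 ± 0.38 (SE), adjusted p = 0.0127). The endothelial list was 0.00388% to 0.00639% of the FPKM in HH_Ctrl and 0.0134% to 0.0246% in all other libraries. Endothelial calls fell to 2 or 3 without HH_Ctrl 1, 2 or 3, HH_WBI 1 or HH_WBI 3, and to 1 without LL_WBI 3 and HH_WBI 3. The part of the tissue content of the HH_Ctrl libraries in these rises was not tested. Smooth muscle genes gave 0 calls of 12 (median 0.13, with 1 higher and 0 lower at an unadjusted limma p under 0.05). Of 9 genes of enteric neurons and glia 2 were called higher, Vip (log2 1.1 ± 0.21 (SE), adjusted p = 0.00439), the vasoactive intestinal peptide, and Gfap (log2 1.43 ± 0.41 (SE), adjusted p = 0.0261), a glial filament, and neither call held without HH_WBI 1 (log2 0.98 and 1.39, the second at an adjusted p of 0.0552).

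**Figure D3:**
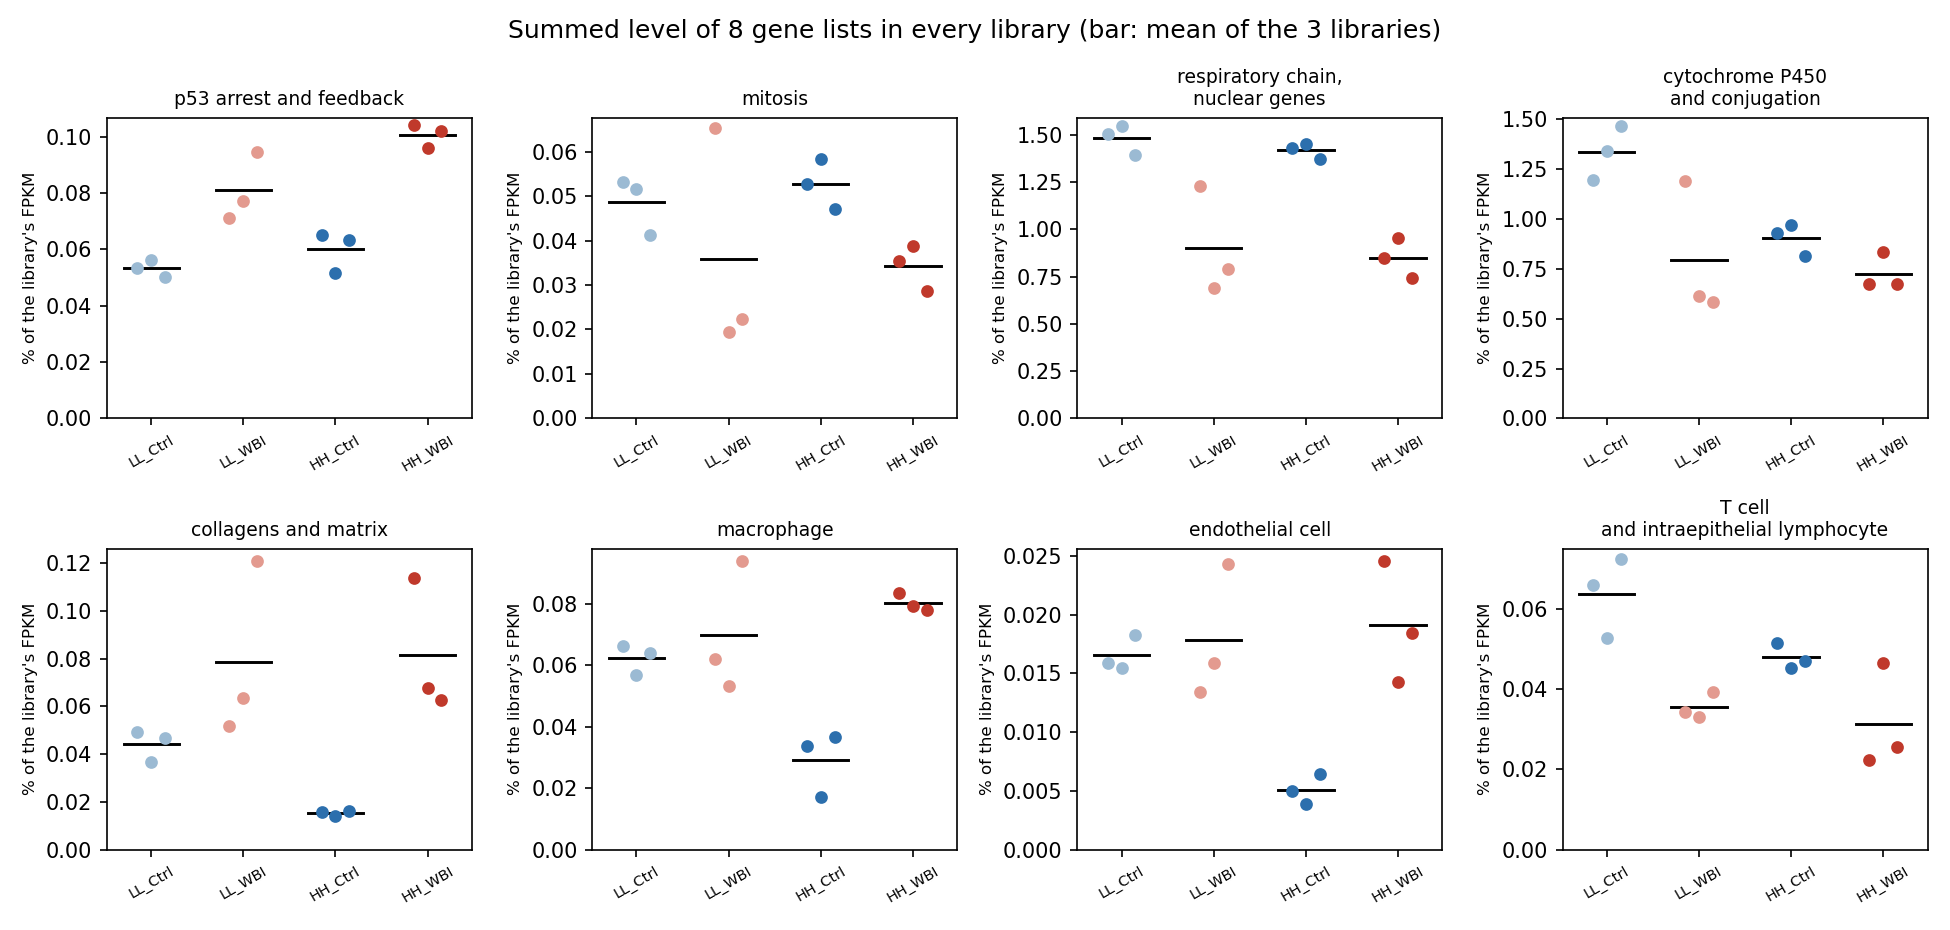
Summed FPKM of 8 gene lists as a percent of all FPKM of a library, for each of the 12 libraries by group, with a bar at the mean of 3 libraries. The p53 arrest and feedback genes and the matrix genes were higher and the respiratory chain genes lower in all 6 WBI than in all 6 Ctrl libraries, LL_WBI 1 lay above every control for mitosis genes, and HH_Ctrl was lowest for matrix, macrophage and endothelial genes.

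T cell transcripts were lower after irradiation in both modes. Of 19 tested genes of T cells and intraepithelial lymphocytes 4 were called lower and none higher, 14 were lower by the adjusted p alone (12% of all genes), the median was -0.77 and 6 had every WBI library below every control. Trbc2, a constant chain of the T cell receptor, fell from between 8.21 and 11.4 to between 3.74 and 5.89 FPKM (log2 -1.05 ± 0.14 (SE), adjusted p = 0.000703). Lck, the kinase of T cell receptor signalling, fell from between 4.27 and 7.09 to between 1.97 and 4.23 FPKM (log2 -1.1 ± 0.17 (SE), adjusted p = 0.00191). The summed list was 0.0453% to 0.0725% of the FPKM in Ctrl libraries and 0.0223% to 0.0393% in 5 WBI libraries, with 0.0465% in HH_WBI 2. Without HH_WBI 1 there were 2 calls, and Trbc2 was among those lost, at a log2 difference of -0.98. There were 3 calls without LL_WBI 1 and LL_WBI 2, 2 with the pancreatic lists removed and 1 with trends on GC content and length removed. With a pseudocount of 1 there were 0, and 14 genes were lower by the adjusted p alone. None of 13 B cell genes was called (median -0.96, with 0 higher and 1 lower at an unadjusted limma p under 0.05). Of these 7 were called lower without HH_Ctrl 2, the library with the lowest summed level of the list (0.0018%, against 0.0203% and 0.0205% in the other HH_Ctrl libraries). None of 13 plasma cell genes was called either (median 0.20, with 2 higher and 0 lower at an unadjusted p under 0.05). Of 8 MHC class II genes only H2-Oa was called (log2 -1.38 ± 0.45 (SE), adjusted p = 0.0423), and in 2 of the 12 fits that left out 1 library. Mcpt1 and Mcpt2, proteases of mucosal mast cells, were the 2 called of 5 mast cell and eosinophil genes. Mcpt1 had 4.57 to 5.87 FPKM in LL_Ctrl and 0.222 to 1.06 FPKM in HH_Ctrl libraries, and 0, 0.414, 0, 0.085, 0 and 0 FPKM in LL_WBI 1 to 3 and HH_WBI 1 to 3 (log2 -3.68 ± 0.57 (SE), adjusted p = 0.00172). Mcpt2 (log2 -2.32 ± 0.73 (SE), adjusted p = 0.0378) kept its call in 3 of the 12 fits that left out 1 library, with 3.25 FPKM in LL_WBI 2 against at most 0.119 FPKM in the other WBI libraries.

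Globin transcripts had the lowest median of the lists tested. The 4 globin genes tested made up all 4 calls among 6 erythroid genes (median -4.48), and every WBI library lay below every control. Hbb-bs had 38.7, 27.3, 77.1, 14.5, 15.5 and 34.1 FPKM in LL_Ctrl 1 to 3 and HH_Ctrl 1 to 3, and 0.991, 0.468, 0.788, 3.42, 0.709 and 1.16 FPKM in LL_WBI 1 to 3 and HH_WBI 1 to 3. It was 26.2-fold lower (log2 -4.71 ± 0.47 (SE), adjusted p = 0.000103). Hba-a2 fell from between 8.34 and 46.8 to between 0.369 and 2.48 FPKM (log2 -4.26 ± 0.44 (SE), adjusted p = 0.00013), and Hba-a1 (log2 -4.8 ± 0.57 (SE), adjusted p = 0.000363) and Hbb-bt (log2 -4.76 ± 0.39 (SE), adjusted p = 2.05e-05) by similar amounts, each from 2.07 FPKM or more to 1.31 FPKM or less. The alpha globin genes, and likewise the beta globin genes, are near-identical pairs, so reads may have been split within each pair. Fech and Car2, which act in many cell types besides red cell precursors, were not called (log2 -0.0057 ± 0.11 (SE), adjusted p = 0.974 and log2 0.14 ± 0.56 (SE), adjusted p = 0.871).

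Genes of oxidative metabolism were lower by small and even amounts. None of 27 nuclear genes of the respiratory chain and ATP synthase reached the fold threshold, yet all 27 had a negative difference, 26 passed an adjusted limma p of 0.05 (12% of all genes), all 27 an unadjusted p of 0.05, and 13 had every WBI library below every control. Their median was -0.74, with -0.69 in LL and -0.81 in HH, and their differences ran from -0.92 in Cox6c, a subunit of cytochrome c oxidase, to -0.38 in Ndufs1, a subunit of complex I. The summed list took 1.37% to 1.55% of the FPKM in Ctrl libraries and 0.688% to 1.23% in WBI libraries, with LL_WBI 1 the highest of these. The median stayed between -0.82 and -0.62 under every other scaling and without any 1 library, and 25 or 26 genes passed in the fits that left out 1 library. In the wider KEGG pathway of oxidative phosphorylation, taken from the annotation in the deposited table, which shares many of these genes, 81 of 121 were lower and 4 higher by the adjusted p alone. Ribosomal protein genes were lower too, with 55 of 134 passing (12% of all genes) and a median of -0.38. Their difference was smaller in LL (-0.13) than in HH (-0.63). The count was 100 without LL_WBI 1, 32 without LL_Ctrl 1, 20 to 28 without any 1 HH library, and 29 with the pancreatic lists removed.

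Several enzymes that handle drugs, retinoids and fatty acids were called lower. Of 26 cytochrome P450 and conjugation genes 8 were called lower (1.44% of all genes) and none higher (median -0.91). Cyp2b10, which oxidises drugs, was at 307 to 476 FPKM in Ctrl and 46.7 to 216 FPKM in WBI libraries, 4.7-fold lower (log2 -2.23 ± 0.34 (SE), adjusted p = 0.00172). Ugt1a1, which conjugates bilirubin, was at 149 to 221 and 44.6 to 108 FPKM (log2 -1.49 ± 0.22 (SE), adjusted p = 0.00149). The count was 5 without LL_WBI 2, HH_Ctrl 2 or HH_WBI 1, and 12 without LL_WBI 1 and LL_WBI 2. Adh6a, an alcohol dehydrogenase, fell from between 405 and 585 to between 68.8 and 364 FPKM (log2 -1.7 ± 0.36 (SE), adjusted p = 0.00713). In the KEGG retinol pathway 10 of 51 genes were called lower (1.44% of all genes) and 3 higher, the latter near the 5.42% of all genes. Of 16 genes of fatty acid oxidation and ketogenesis 3 were called lower and 10 were lower by the adjusted p alone, with 1 higher and a median of -0.63, and 1 was called without LL_WBI 3 and HH_WBI 3. Acot2, a mitochondrial thioesterase, was at 3.13 to 5.8 and 1.28 to 3.54 FPKM (log2 -1.17 ± 0.22 (SE), adjusted p = 0.00403). Angptl4, a lipase inhibitor induced by fatty acids, was at 29.5 to 152 and 12.4 to 38.8 FPKM (log2 -1.44 ± 0.33 (SE), adjusted p = 0.00979). Pck1, of gluconeogenesis, was lower as well, with 408 to 532 FPKM in HH_Ctrl, 90.8 to 109 FPKM in LL_Ctrl and 20.3 to 205 FPKM in WBI libraries (log2 -1.59 ± 0.30 (SE), adjusted p = 0.00448). Cholesterol synthesis gave 0 calls of 18 (median 0.06, with 0 higher and 1 lower at an unadjusted limma p under 0.05). Coq8a, which is needed to make coenzyme Q, fell 4.55-fold from between 16.1 and 28.8 to between 1.72 and 15.9 FPKM (log2 -2.18 ± 0.42 (SE), adjusted p = 0.00482).

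Car4, a carbonic anhydrase of the brush border that is highest toward the colon, fell from between 78.4 and 147 to between 1.94 and 44 FPKM, 8.84-fold (log2 -3.14 ± 0.49 (SE), adjusted p = 0.00183), and 1 of the 4 colon markers tested was called. The transcript 1810065E05Rik fell from between 1.9 and 9.38 to between 0.42 and 1.12 FPKM (log2 -2.23 ± 0.33 (SE), adjusted p = 0.00152). Hsd11b2, which inactivates corticosterone, fell from between 1.93 and 6.94 to between 0.456 and 1.22 FPKM (log2 -2.17 ± 0.28 (SE), adjusted p = 0.000715). Hsd11b1, which regenerates it, moved the other way, from between 0.845 and 4.3 to between 7.44 and 19.2 FPKM (log2 2.57 ± 0.37 (SE), adjusted p = 0.00134), with log2 1.47 in LL and 3.67 in HH (adjusted p of the difference 0.0175). In the glucocorticoid response list 3 of 10 genes were called higher (median 0.29), and 1 to 3 when 1 library was left out. Among these Mt2, a metallothionein, was at 4.92 to 15.1 FPKM in LL_Ctrl and 272.6 to 619 FPKM in HH_Ctrl libraries, and rose in LL (log2 3.39) more than in HH (log2 0.31, adjusted p of the difference 0.0329). Its call over both modes (log2 1.85 ± 0.56 (SE), adjusted p = 0.0321) held in 5 of the 12 fits that left out 1 library. Of 14 clock genes Dbp (log2 1.66 ± 0.48 (SE), adjusted p = 0.027) and Ciart (log2 1.38 ± 0.39 (SE), adjusted p = 0.0245) were called higher, both with overlapping groups, and they kept the call in 6 and 7 of these 12 fits. The duodenal marker Cybrd1, an iron reductase, was called (log2 2.15 ± 0.59 (SE), adjusted p = 0.0214) with 34.6 FPKM in LL_WBI 2 against 0.299 to 3.37 FPKM in all other libraries. Its log2 difference was 2.3 in LL and 2.0 in HH. The call of Cybrd1 held without LL_WBI 2 but was lost without HH_WBI 1 and with a pseudocount of 1. The pancreatic genes Clps (log2 2.3 ± 0.65 (SE), adjusted p = 0.0239) and Pnliprp2 (log2 1.71 ± 0.41 (SE), adjusted p = 0.0126) were highest in LL_WBI 2 and LL_WBI 1. Both kept their calls without these libraries. Clps lost its call without LL_Ctrl 2 or HH_WBI 1, and both genes lost it without the mode as a covariate.

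**Figure D4:**
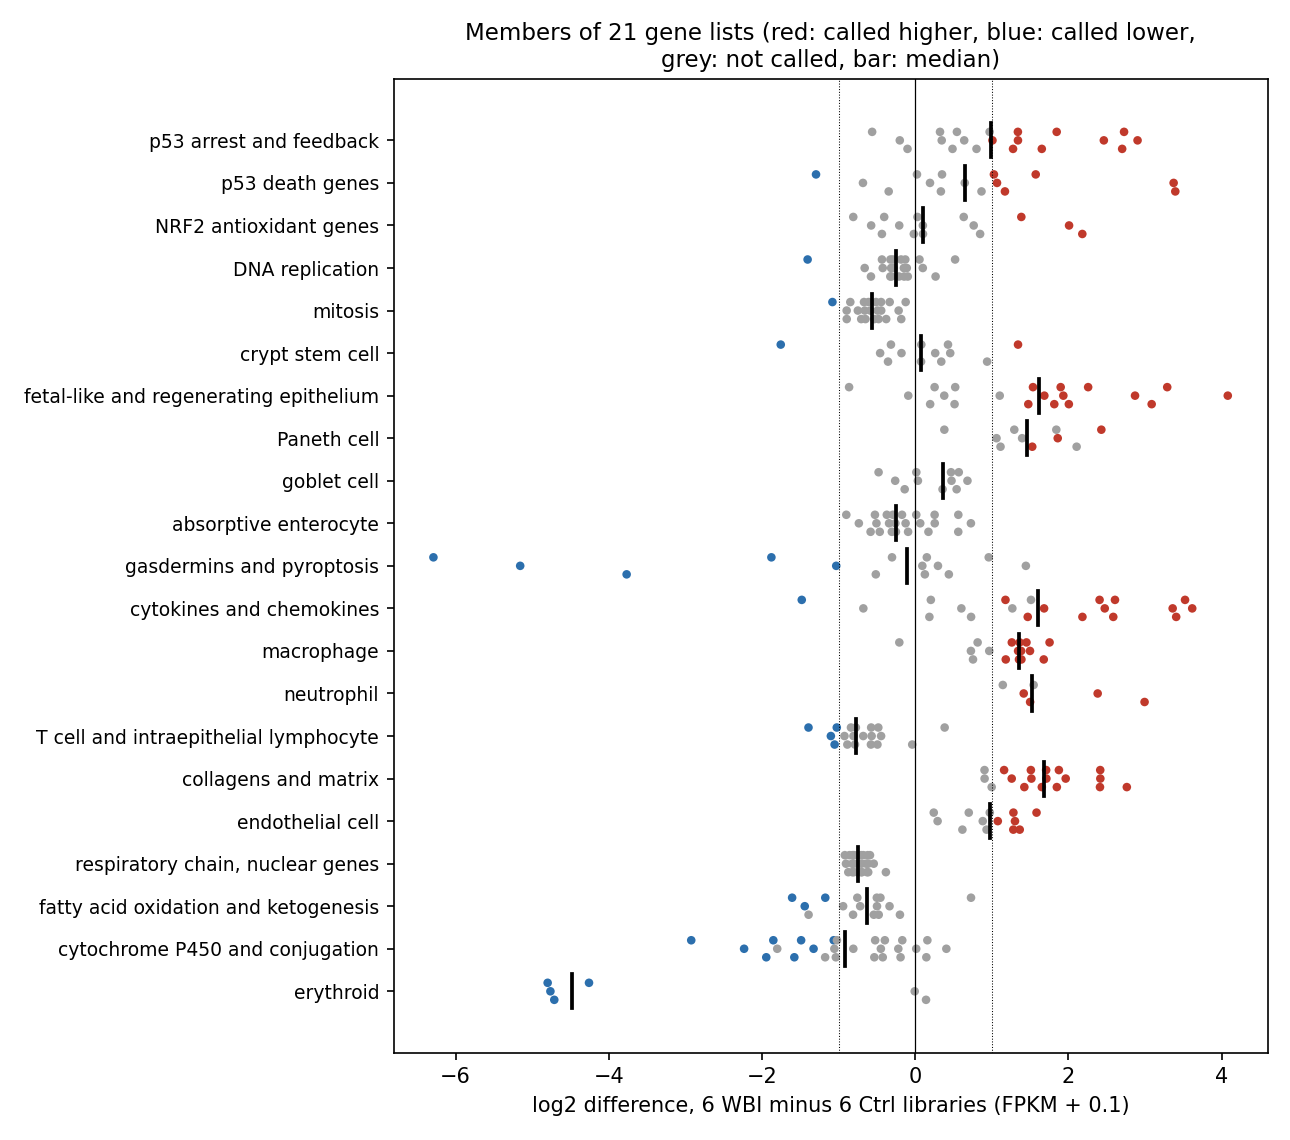
Log2 difference between the 6 WBI and the 6 Ctrl libraries (x axis) for every tested member of 21 gene lists, with members called higher in red, called lower in blue and the list median as a bar. The medians of the p53, regenerating epithelium, chemokine and matrix lists lie to the right, the globins and gasdermin C genes far to the left, and the respiratory chain genes in a narrow band between -0.92 and -0.38.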

How the data were processed

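The authors deposited 1 table of FPKM per gene for the 12 libraries. Their methods name StringTie v1.3.1 for FPKM, and the submitters' processing notes list Bowtie 0.12.2, with mm8, GRCm39 and mm39 as genome builds, and give none of them a role. The preparation of the libraries is described differently by the labels (removal of ribosomal RNA) and the methods (oligo(dT) beads). No counts were used, so the absolute depth is unknown and no counting interval is given. A value of 0 is reported as listed, since a library held a 0 for 19 of the 5470 genes that averaged 10 FPKM or more.

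From the deposited FPKM, log2(FPKM + 0.1) was fitted with limma 3.58.1 (R 4.3.3, trend on the mean) with mode and irradiation as terms, over the 12921 genes that averaged 0.5 FPKM or more, and by group for the difference between modes. The pseudocount makes the fold changes of low genes too small. The procedure was tested on simulated data. Named genes were the 14 called higher and 14 called lower with the largest change outside the pancreatic lists among those averaging 2 FPKM or more, with no overlap and one direction in both modes, up to 2 called members per list and direction by smallest p, and 11 set genes (Il10 was not tested). Il10 apart, this gave 83 genes. A few other list members are named for their role, chosen after their values were seen. The members, lists and tests were chosen with earlier results of these data known. Alternatives were the pseudocount, the filter, scaling, covariates, threshold and libraries. Other software was pandas 2.3.3 and numpy 2.4.6 under Python 3.11.15, with matplotlib 3.10.9 for plots.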

Additional observations from a re-analysis of the deposited data

Results flagged for a closer look

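In 166 groups of 6 libraries (83 named genes, WBI and Ctrl apart), 9 held a library whose gap to the nearest other exceeded the critical share of the range, where chance flags about 1 group in 20. The gap of LL_WBI 1 below the other irradiated libraries took a share of 0.673 of the log2 range for Atg9b (0.521 FPKM against 3.27 to 7.56) and 0.676 for Gdf15 (2.44 FPKM against 3.94 to 4.95). That of LL_WBI 2 above the others was 0.685 for Cybrd1 (34.6 FPKM against 1.10 to 3.37) and 0.777 for Mcpt2 (3.25 FPKM against 0 to 0.119). The share was 0.885 for Il6 in HH_WBI 3 (0.205 FPKM, the others 0.967 to 1.16), 0.645 for Lck in HH_WBI 2 (4.23 FPKM, the others 1.97 to 2.59) and 0.683 for S100a9 in LL_WBI 3 (11.6 FPKM, the others 0.405 to 1.27). Among the controls it was 0.649 for Atg9b in LL_Ctrl 2 (0.107 FPKM, the others 0.077 to 0.087) and 0.907 for S100a9 in HH_Ctrl 3 (listed at 0, the others 0.073 to 0.083 FPKM).

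For 7 named genes the response differed between modes by the limma test of the difference. It was larger in HH by 3.81 on the log2 scale for Ccl11, 2.58 for Mrc1, 2.49 for Gcg, 2.20 for Hsd11b1, 1.41 for Hmox1 and 1.16 for Mdm2, and smaller in HH for Mt2 (HH minus LL -3.08). In each of the 6 genes with the larger response in HH, every HH_Ctrl library lay below every LL_Ctrl library, and for Mt2 every one lay above. Whether these 7 differences stay called when a library is left out was not tested gene by gene, and the count over all genes moved with single libraries.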

How the results depend on the processing

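Of the 700 genes higher and 186 lower, a pseudocount of 1 FPKM left 294 and 115, a mean of at least 2 FPKM left 429 higher, and the adjusted p alone gave 1505 and 1555. Without LL_WBI 3 and HH_WBI 3 there were 465 higher, without LL_WBI 1 and LL_WBI 2 there were 1193 higher and 280 lower, and leaving out 1 library gave 463 to 927 higher and 153 to 274 lower. The 952 genes whose responses differed became 2310 without LL_WBI 3 and HH_WBI 3, 423 with trends on GC content and transcript length removed (an alternative chosen after seeing the data) and 69 to 2030 when 1 library was left out, lowest without LL_Ctrl 3 and highest without LL_WBI 3. The cause was not tested, except that fewer genes were tested with the higher mean. Correlations of same-numbered libraries ran from -0.0364 to 0.242, and differently numbered ones were not compared, so whether the replicate numbers pair the libraries was not tested. With the number as a block 669 genes were higher, 188 lower and 815 differed between modes. Of the 79 named genes that were called, 61 were called in each fit that left out 1 library and tested them (Il6 stayed above the level for testing in 7 of the 12, Cd163 in 10 and S100a9 in 11) and 49 in every alternative as well, and none changed sign. The small difference of Trp53 turned positive with the pancreatic lists removed (0.034), with the GC and length trends removed (0.050) and without LL_WBI 2 (0.022), and was lowest without LL_WBI 1 (-0.134). Removing the pancreatic lists moved the median of all genes to 0.0831, and no other scaling moved it by as much.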

Other observations

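Further genes with no overlap between the 6 WBI and the 6 Ctrl libraries are named here after their values were seen. Ccnd1 and Ccnd2, the D cyclins that couple growth signals to the cell cycle, rose from between 10.7 and 18.6 to between 19.8 and 44.7 FPKM (log2 1.2 ± 0.16 (SE), adjusted p = 0.00101) and from between 17.1 and 25.9 to between 55.4 and 120.0 FPKM (log2 1.94 ± 0.21 (SE), adjusted p = 0.000161), with the mitosis list lower in the same libraries other than LL_WBI 1. Fosl1, a subunit of AP-1, was at 0 to 0.071 FPKM in Ctrl and 0.633 to 2.53 FPKM in WBI libraries (log2 3.86 ± 0.32 (SE), adjusted p = 2.25e-05). Phlda1 (log2 2.17 ± 0.27 (SE), adjusted p = 0.000464), Etv5 (log2 1.3 ± 0.16 (SE), adjusted p = 0.000544) and Spry4 (log2 1.6 ± 0.25 (SE), adjusted p = 0.00191), which respond to growth factor signals, and Btc (log2 1.89 ± 0.27 (SE), adjusted p = 0.00134), another ligand of the EGF receptor, also rose.

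Igf1 was at 0.628 to 2.13 FPKM in Ctrl and 4.11 to 13.4 FPKM in WBI libraries (log2 2.42 ± 0.27 (SE), adjusted p = 0.00022), Lif, a cytokine of the interleukin 6 family, at 0.669 to 1.01 and 1.64 to 4.18 FPKM (log2 1.47 ± 0.21 (SE), adjusted p = 0.00127), and Spp1, osteopontin, at 0.895 to 19.6 and 20.8 to 60.5 FPKM (log2 2.52 ± 0.54 (SE), adjusted p = 0.00724). Casp14, a caspase of cornifying skin, was at 0.017 to 0.12 FPKM in Ctrl and 1.03 to 4.82 FPKM in WBI libraries (log2 4.17 ± 0.30 (SE), adjusted p = 8.63e-06).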
